A study of Mus musculus with 4 samples.

Results

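The subject here is a set of 10 genes of the cytosolic and mitochondrial heat shock protein system, read from a table of 34745 mouse genes by their Ensembl identifiers. All 10 had a row and all 10 passed the filter on low counts. RNA came from primary bone marrow-derived macrophages of C57BL/6 mice, cultured cells that differentiate from marrow progenitors. One group was transfected with Acly-E14 siRNA and the other with control siRNA, and both groups were then given LPS, the bacterial endotoxin, so no unstimulated cells are described. There were 2 libraries per group. The labels give neither the dose and time of LPS nor the age of the mice, and they do not spell out E14.

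Heat shock proteins are chaperones that bind unfolded chains and help them fold or pass them on for degradation. In the cytosol, HSP70 proteins work with J-domain partners, which deliver clients and trigger ATP hydrolysis, and with exchange factors, which release the nucleotide, while HSP90 finishes the folding of signalling proteins. In mitochondria, HSP60 and its lid HSP10 form a folding chamber. The transcription factor HSF1 is released during proteotoxic stress and induces many of these genes by binding arrays of inverted GAA units, called heat shock elements. Its activity is set mostly by its protein state, so its own transcript level does not report it.

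Among the 10 genes, the HSP70 genes and the inducible HSP90 gene were higher after Acly-E14 siRNA, while the co-chaperone gene Bag3 was lower. Hspa1b had the largest fold change of the 10, 3.01-fold, and Hspa8 the largest change in level. By edgeR's quasi-likelihood test, 4 members rose (Hspa1b, Hspa1a, Hspa8 and Hsp90aa1), 1 fell (Bag3) and 5 did not pass the test, at an adjusted p under 0.05. Of all 13108 genes tested, 17.3% rose and 15.9% fell by the same rule, 33.2% in all. The median log2 change was 0.12 over the members and 0.0027 over all genes tested. With library totals in place of TMM factors the members split into 5 higher and 0 lower, with Hspd1 gained and Bag3 lost. The count of members called was 3 without Acly-E14 siRNA library 1, 3 without Acly-E14 siRNA library 2 and 3 without control library 1.

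The libraries held 21023197 to 21837806 counts. Acly, the gene for ATP citrate lyase and the target of the siRNA, had 118 and 127 CPM after Acly-E14 siRNA, against 158 and 154 CPM after control siRNA (log2 -0.35, edgeR adjusted p = 0.0086, or 0.058 with control library 1 left out). All 8 defining macrophage markers were present, with a summed level of 6803 and 7188 CPM in Acly-E14 siRNA libraries and 8302 and 7565 CPM in controls, most of it Lyz2 (4399 and 4804 CPM against 4932 and 4550 CPM). Of these 8, 1 rose (Fcgr1) and 4 fell (Cd68, Csf1r, Mertk and Spi1), with Cd68 at 0.625-fold of control. In a wider list of macrophage genes, 7 of 19 tested rose and 8 fell. Fibroblast and stroma markers separated the groups: 14 of 15 rose and 0 fell, with a summed level of 3061 and 3836 CPM after Acly-E14 siRNA and 933 and 1416 CPM after control siRNA, and none of them was at 0. Immediate early genes, a class that reacts within minutes to many stimuli, were 14, of which 6 rose and 0 fell. Defining markers of B cells and neutrophils summed to less than 0.3 CPM in every library, with Ngp at 0. T cell markers summed to between 18.3 and 22.5 CPM, nearly all of it Lck, with Cd3e at 0. Cd3d did not pass the filter on low counts. Endothelial markers summed to 113 and 109 CPM after Acly-E14 siRNA and 293 and 282 CPM after control siRNA. Most of the endothelial sum was Kdr (103 and 97.6 CPM, against 277 and 269 CPM). Cdh5 had 10.1 and 11.0 CPM, against 15.7 and 13.0 CPM, and Pecam1 did not pass the filter. In such bulk samples, a change in the share of a cell type and a change of RNA per cell cannot be told apart.

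The promoter sequences are shown because the members that rose include a near-identical gene pair, and because the mitochondrial pair is read from a common upstream region. RefSeq windows on GRCm38.p6 were matched by symbol for 7 of the 10 members. No window was found for Hspa8, Hsp90aa1 and Hsf1. The 250 bases before the annotated start were searched for the unit pairs GAANNTTC and TTCNNGAA, each of which reads the same on both strands, and for arrays of 3 units (TTCNNGAANNTTC or its reverse complement GAANNTTCNNGAA), which contain and overlap the pairs. The capitals below mark matched letters, and all sequences run 5′ to 3′ on the strand of the gene. The windows are chr17:34959239-34959488 (minus strand) for Hspa1b, chr17:34972157-34972406 (minus strand) for Hspa1a and chr1:55087898-55088147 (plus strand) for Hspe1.
Hspa1b: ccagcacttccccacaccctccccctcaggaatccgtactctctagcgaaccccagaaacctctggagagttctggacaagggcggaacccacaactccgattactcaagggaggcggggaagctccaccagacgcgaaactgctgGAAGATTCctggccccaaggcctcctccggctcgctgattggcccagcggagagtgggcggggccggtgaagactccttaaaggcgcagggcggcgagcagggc
Hspa1a: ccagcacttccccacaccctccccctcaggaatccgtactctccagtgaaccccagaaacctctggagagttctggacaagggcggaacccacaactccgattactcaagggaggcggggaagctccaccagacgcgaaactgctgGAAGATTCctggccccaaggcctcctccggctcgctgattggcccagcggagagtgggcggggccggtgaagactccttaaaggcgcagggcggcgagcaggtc
Hspe1: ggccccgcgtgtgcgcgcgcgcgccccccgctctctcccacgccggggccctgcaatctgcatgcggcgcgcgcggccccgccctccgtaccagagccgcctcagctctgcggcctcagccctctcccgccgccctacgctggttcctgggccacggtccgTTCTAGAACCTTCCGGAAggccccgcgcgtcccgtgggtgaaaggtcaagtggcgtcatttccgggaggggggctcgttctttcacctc

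Hspa1b and Hspa1a carried the same GAANNTTC match, GAAGATTC, 104 to 97 bases before the start. Counted from 1 at the 5′ end of the window, the substitutions from Hspa1a to Hspa1b were C44T, T47C and T249G (the base of Hspa1a first), and the other 247 of 250 bases were equal. The Hspe1 window held 4 units in a row, and the same array lay in the window of the downstream Hspd1 start on the other strand, while the window of the upstream Hspd1 start had no match. The downstream Hspd1 window and the Hspe1 window, each of 300 bases with 50 after the start, shared 285 bases. Both Hsph1 windows held a TTCNNGAA pair at 1 position, while the Bag3 and Dnajb1 windows had no match to these letters. A GAANNTTC pair was present in 6.69% of all 32851 windows of this length, a TTCNNGAA pair in 7.17%, any of the motifs in 12.8% and an array of 3 units in 0.466%. A match of letters is a description and not evidence of binding, and matches occurred upstream of members that rose (Hspa1a, Hspa1b) and of members that did not pass the test (Hspd1, Hspe1, Hsph1).

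**Figure D1:**
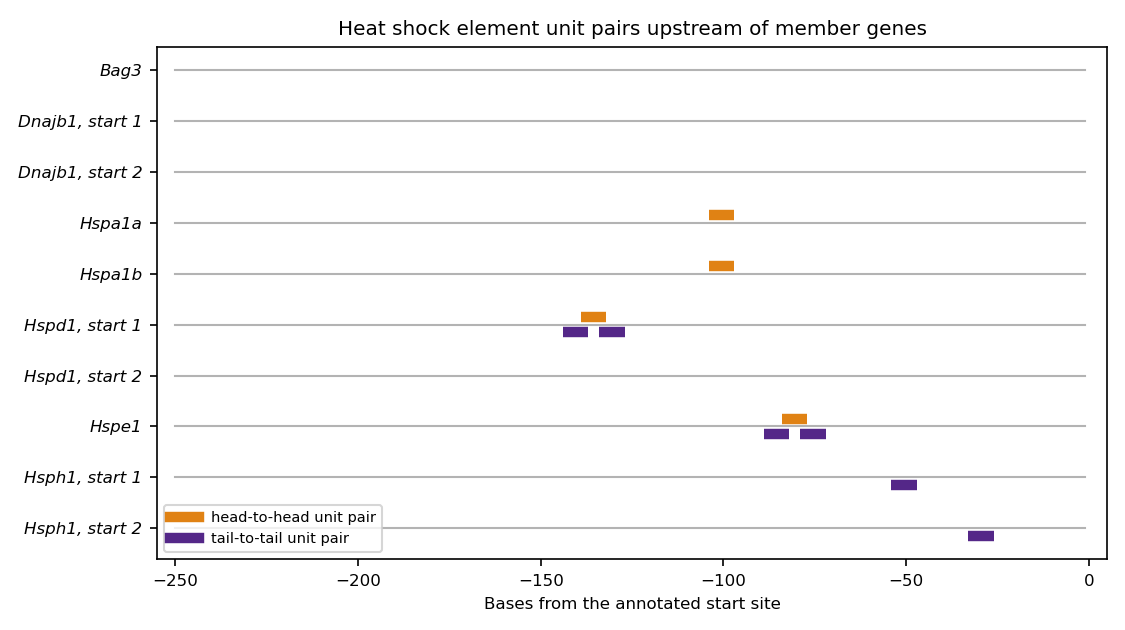
Position of heat shock element unit pairs upstream of the members with a RefSeq window, in bases from the annotated start site (x axis); each grey line is 1 window of 250 bases, and coloured bars are matches to GAANNTTC (head-to-head) or TTCNNGAA (tail-to-tail). Hspa1a and Hspa1b share 1 match at the same place, the downstream Hspd1 window and the Hspe1 window hold the overlapping array, and the upstream Hspd1 window, Bag3 and Dnajb1 hold none.

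Hspa8 encodes HSC70, the constitutive cytosolic HSP70. It had 718 and 699 CPM in Acly-E14 siRNA libraries, against 476 and 510 CPM in control libraries. Both Acly-E14 siRNA libraries were well above both controls, and the groups differed by far more than their spread (708.6 ± 13.3 and 493 ± 24 CPM, SD, n = 2 each). The level was 1.44-fold higher (log2 0.52, SE 0.058, 95% interval of the fold 1.3 to 1.59, edgeR adjusted p = 0.0027). The change kept its sign and its call without any 1 of the 4 libraries, with adjusted p between 0.012 and 0.027. Hspa8 alone made up 56.1% and 54.0% of the counts of the 10 members after Acly-E14 siRNA, against 49.1% and 49.5% after control siRNA. Of the distinct 75-base stretches of its transcripts, 32.8% also occurred in other genes, chiefly in Gm15459, for which no counts were recorded. Its annotated exons also overlapped Snord14c, Snord14d and Snord14e on the same strand, likewise without counts. How reads of such sequence were counted is not stated.

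Hspa1b and Hspa1a encode the stress-inducible HSP70 proteins and lie near each other on the minus strand of chromosome 17, in the class III part of the histocompatibility region. In mm10, Hspa1b spans 34956436 to 34959238 and Hspa1a 34969190 to 34972156, each as a single exon. Their coding sequences in GENCODE M21 were 99.4% identical, with 8 mismatches and a gap of 3 bases over 1926 aligned bases. Of the distinct 75-base stretches of their transcripts, 55.8% (Hspa1b) and 54.2% (Hspa1a) also occurred in another gene, mostly in each other. The labels do not say how such reads were counted, so the split between the pair is uncertain.

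Hspa1b had 270 and 312 counts, or 12.4 and 14.3 CPM, in Acly-E14 siRNA libraries, against 64 and 120 counts, or 3.18 and 5.61 CPM, in control libraries. The groups did not overlap, and control library 2 stood well above control library 1. Hspa1b rose 3.01-fold (log2 1.59, SE 0.26, 95% interval of the fold 1.94 to 4.68, edgeR adjusted p = 0.0076), and the call held without any 1 of the 4 libraries. Hspa1a had 138 and 129 counts in Acly-E14 siRNA libraries (6.31 and 5.89 CPM), against 53 and 86 counts in control libraries (2.63 and 4.02 CPM). Its rise of 1.83-fold (log2 0.87, SE 0.24, edgeR adjusted p = 0.036) did not pass when a library was dropped, namely Acly-E14 siRNA library 1 (0.132) or 2 (0.113) or control library 1 (0.098), nor with DESeq2 (0.058). Control library 1 was the lowest of the 4 libraries for both genes.

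The sum of the pair does not depend on how reads were split between them. It still depends on whether reads of shared sequence were counted at all, which is not stated. Hspa1l, which is outside the sum, shares 5.88% of the 75-base stretches of Hspa1a and 4.58% of those of Hspa1b. The sum was 408 and 441 counts in Acly-E14 siRNA libraries, against 117 and 206 counts in control libraries. The summed pair rose 2.51-fold (log2 1.32, SE 0.23, edgeR adjusted p = 0.0088), a call that was kept without any 1 of the 4 libraries (log2 between 1.0 and 1.74). Counts of Hspa1b over Hspa1a were 1.96 and 2.42 after Acly-E14 siRNA and 1.21 and 1.40 after control siRNA, a difference with an exact two-sided permutation p of 0.333, the smallest that 2 libraries against 2 allow. Even after Acly-E14 siRNA the pair was a small part of the set, at 1.46% and 1.55% of member counts, against 0.599% and 0.934% after control siRNA.

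Hsp90aa1 encodes HSP90-alpha, the inducible cytosolic HSP90. It had 281 and 298 CPM in Acly-E14 siRNA libraries, against 223 and 228 CPM in control libraries, with no overlap. It rose 1.29-fold (log2 0.36, SE 0.056, 95% interval of the fold 1.17 to 1.42, edgeR adjusted p = 0.0064), and missed the threshold once control library 1 was dropped (0.055). Of its 75-base stretches, 42.8% also occurred in other genes, chiefly in Gm12346, an Ensembl row with 1947 and 2074 counts after Acly-E14 siRNA and 1617 and 1632 after control siRNA. Adding the counts of Gm12346 to Hsp90aa1 left a log2 change of 0.33 (edgeR adjusted p = 0.0081).

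**Figure D2:**
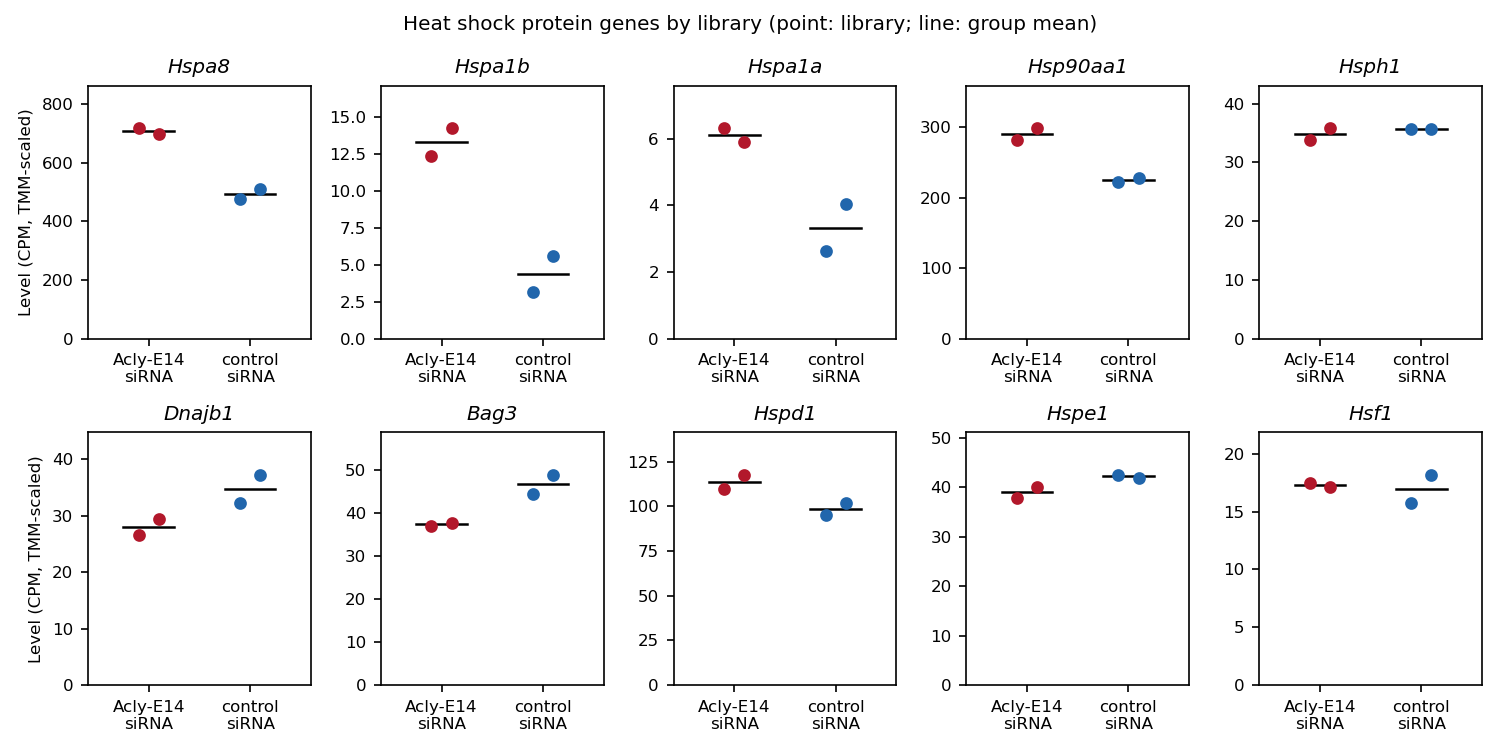
Level of each of the 10 genes (y axis, TMM-scaled CPM, starting at 0) in the Acly-E14 siRNA libraries (red, left) and the control siRNA libraries (blue, right); each point is 1 library and each line a group mean of 2. Hspa8, Hspa1b, Hspa1a and Hsp90aa1 stand higher after Acly-E14 siRNA, and Bag3 lower. Hspd1 (higher), Dnajb1 and Hspe1 (both lower) are also apart but did not pass the test, and Hsph1 and Hsf1 overlap.

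Of the HSP70 partners, Bag3 fell, Dnajb1 had a similar log2 change that did not pass the test, and Hsph1 did not pass it either. Bag3 encodes an exchange factor that links HSP70 to small heat shock proteins and to selective autophagy. It had 37.1 and 37.8 CPM in Acly-E14 siRNA libraries, against 44.4 and 48.9 CPM in control libraries, with both Acly-E14 siRNA libraries below both controls. It fell to 0.802-fold of the control level (log2 -0.32, SE 0.080, edgeR adjusted p = 0.029). The call did not survive dropping Acly-E14 siRNA library 1 (adjusted p = 0.119) or 2 (0.109) or control library 2 (0.104). It also missed the threshold under library totals (0.094), DESeq2 (0.053) and limma on log2(FPKM + 1) (0.081).

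Dnajb1 encodes HSP40, the J-domain partner of inducible HSP70. It had 26.6 and 29.3 CPM in Acly-E14 siRNA libraries, against 32.2 and 37.3 CPM in control libraries. The groups did not overlap, and the log2 change of -0.31 (SE 0.11, edgeR adjusted p = 0.067) did not pass the threshold. Hsph1 encodes HSP110, a nucleotide exchange factor of HSP70. It had 33.8 and 35.9 CPM in Acly-E14 siRNA libraries, against 35.8 and 35.6 CPM in control libraries, with overlapping groups. Its log2 change was -0.04 with a 95% interval from -0.22 to 0.15 (edgeR adjusted p = 0.75), which leaves out the change seen for Hspa8.

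Read as ratios within a library, Hspa8 had 27.0 and 23.8 counts per Dnajb1 count after Acly-E14 siRNA, against 14.8 and 13.7 after control siRNA. Per Bag3 count it had 19.4 and 18.5, against 10.7 and 10.4, and per Hsph1 count 21.2 and 19.5, against 13.3 and 14.3. These within-library ratios need no scaling between libraries, and in all 3 the groups did not overlap. For Dnajb1 and Bag3 that follows from the levels above, since Hspa8 was higher and both genes were lower without overlap. The exact two-sided permutation p was 0.333 for each ratio, the smallest possible here.

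The mitochondrial chaperonin genes Hspd1 (HSP60) and Hspe1 (HSP10) lie head to head on chromosome 1, Hspd1 from 55077835 to 55088243 on the minus strand and Hspe1 from 55088132 to 55091307 on the plus strand. Their annotated exons shared 112 bases on opposite strands, and the counting's use of strand is not stated, so reads there are uncertain. Hspd1 had 109 and 118 CPM in Acly-E14 siRNA libraries, against 95.3 and 102 CPM in control libraries. The groups lay close together without overlap, and the log2 change of 0.21 (SE 0.067, edgeR adjusted p = 0.062) was not called. It was called under library totals (0.028), under limma on log2(FPKM + 1) (0.032) and when the counts of Hspd1-ps3 were added (0.047). Hspd1-ps3, a pseudogene row, shared 28.6% of the 75-base stretches of Hspd1 and had 691 and 717 counts after Acly-E14 siRNA, against 531 and 593 after control siRNA.

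Hspe1 had 37.9 and 40.0 CPM in Acly-E14 siRNA libraries, against 42.6 and 41.9 CPM in control libraries. The log2 change was -0.12 (95% interval -0.29 to 0.06, edgeR adjusted p = 0.27), opposite in sign to that of Hspd1. Counts of Hspd1 per count of Hspe1 were 2.89 and 2.95 after Acly-E14 siRNA and 2.24 and 2.43 after control siRNA (exact permutation p = 0.333, the smallest possible). The other pseudogene rows of the pair held 0 or 1 count in every library.

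Hsf1, the gene for the master regulator of the heat shock response, had 17.4 and 17.1 CPM in Acly-E14 siRNA libraries, against 15.7 and 18.2 CPM in control libraries. The controls enclosed the Acly-E14 siRNA values. Its log2 change was 0.03, with a 95% interval from -0.24 to 0.29 (edgeR adjusted p = 0.88). Over the 10 members, groups did not overlap for 8 (5 higher and 3 lower), beside 70.6% of all genes tested (35.3% higher and 35.3% lower).

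**Figure D3:**
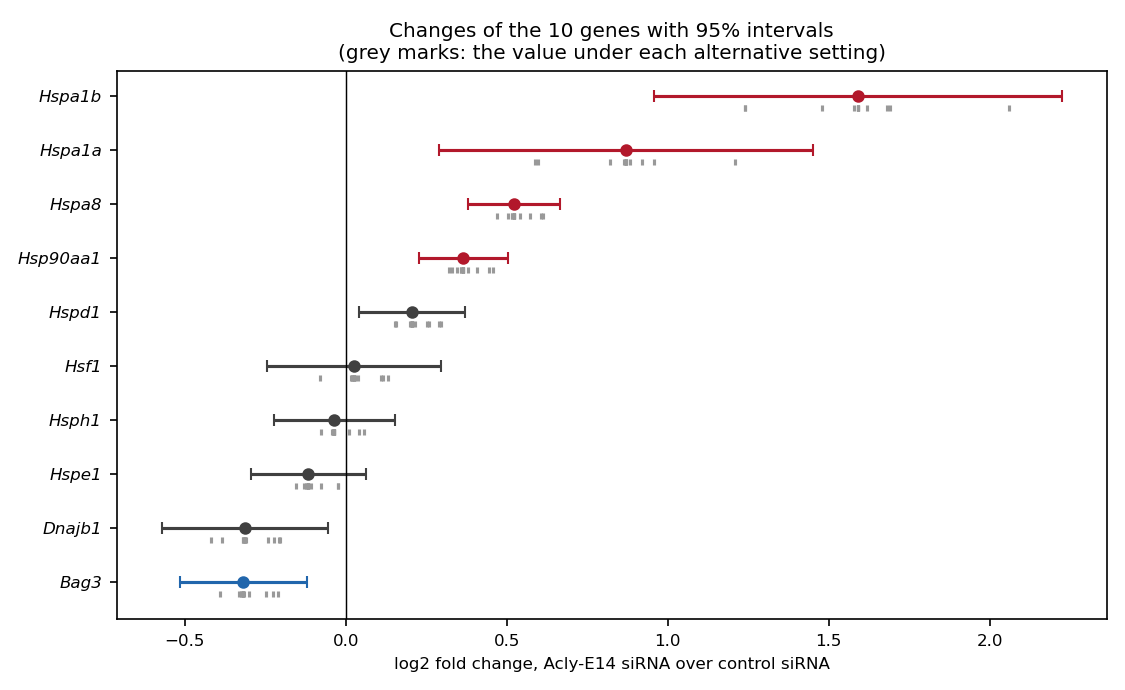
Log2 fold change of each gene, Acly-E14 siRNA over control siRNA (x axis), with its 95% interval from edgeR; red and blue mark genes higher and lower at an adjusted p under 0.05, dark grey those not called, and light grey ticks give the value under each alternative setting. Hspa1b, Hspa1a, Hspa8 and Hsp90aa1 lie right of 0, and Bag3 lies left of it.

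Levels of different genes were compared per kilobase, as FPKM recomputed for all 4 libraries from the counts and the gene lengths that the deposited FPKM imply. Hspa8 was the most abundant of the 10, at 80.5 ± 0.777 FPKM after Acly-E14 siRNA and 52.6 ± 3.38 FPKM after control siRNA (SD, n = 2 each). Hsp90aa1 (45.5 ± 2.33 and 33.2 ± 1.05 FPKM) and Hspd1 (42.2 ± 2.54 and 34.4 ± 2.12 FPKM) came next, with overlapping ranges of mean ± SD in either group. Within libraries, Hsp90aa1 stood above Hspd1 in both Acly-E14 siRNA libraries (43.9 and 47.2 against 40.4 and 44.0 FPKM). In both control libraries it stood below Hspd1 (32.4 and 33.9 against 32.9 and 35.8 FPKM). Hspe1 (23.1 ± 1.07 and 23.5 ± 0.0893 FPKM), Bag3 (15.1 ± 0.341 and 17.6 ± 1.5 FPKM), Dnajb1 (12.8 ± 0.985 and 14.9 ± 1.76 FPKM) and Hsf1 (8.83 ± 0.0292 and 8.15 ± 0.958 FPKM) followed. The ranges of mean ± SD of Bag3 and Dnajb1 were apart after Acly-E14 siRNA and overlapped after control siRNA. Within each library Bag3 stood above Dnajb1, also in the controls (16.6 and 18.7 against 13.6 and 16.1 FPKM).

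The lowest places were held by Hspa1b, Hsph1 and Hspa1a. Hspa1b stood at 4.90 ± 0.538 FPKM after Acly-E14 siRNA and 1.52 ± 0.618 FPKM after control siRNA, Hsph1 at 3.19 ± 0.161 and 3.06 ± 0.0405 FPKM, and Hspa1a at 2.12 ± 0.0844 and 1.09 ± 0.338 FPKM. On the FPKM scale Hspa1b stood above Hsph1 after Acly-E14 siRNA and below it after control siRNA. In the controls the ranges of mean ± SD of Hspa1a and Hspa1b overlapped. Within each control library Hspa1b stood above Hspa1a (1.09 and 1.96 against 0.850 and 1.33 FPKM). These ranks depend on the gene length. For the Hspa1 pair they may also depend on how reads of shared sequence were counted, while Hsph1 shared no 75-base stretch with another gene. The FPKM implied 9084 bases for Hspa8, 11284 for Hsph1 and 2018 for Hsf1, against merged exons of 4301, 7266 and 7099 bases in GENCODE M21. With CPM per kilobase of merged exon, Hspa8 stood at 165 and 115 (Acly-E14 siRNA and control means), Hsp90aa1 at 73.7 and 57.3, Hspd1 at 43.0 and 37.3, and Hsf1 at 2.43 and 2.39, below Hsph1 at 4.79 and 4.91. On that scale Hspa1b, at 4.75 and 1.57, did not differ from Hsph1 beyond the spread after Acly-E14 siRNA.

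**Figure D4:**
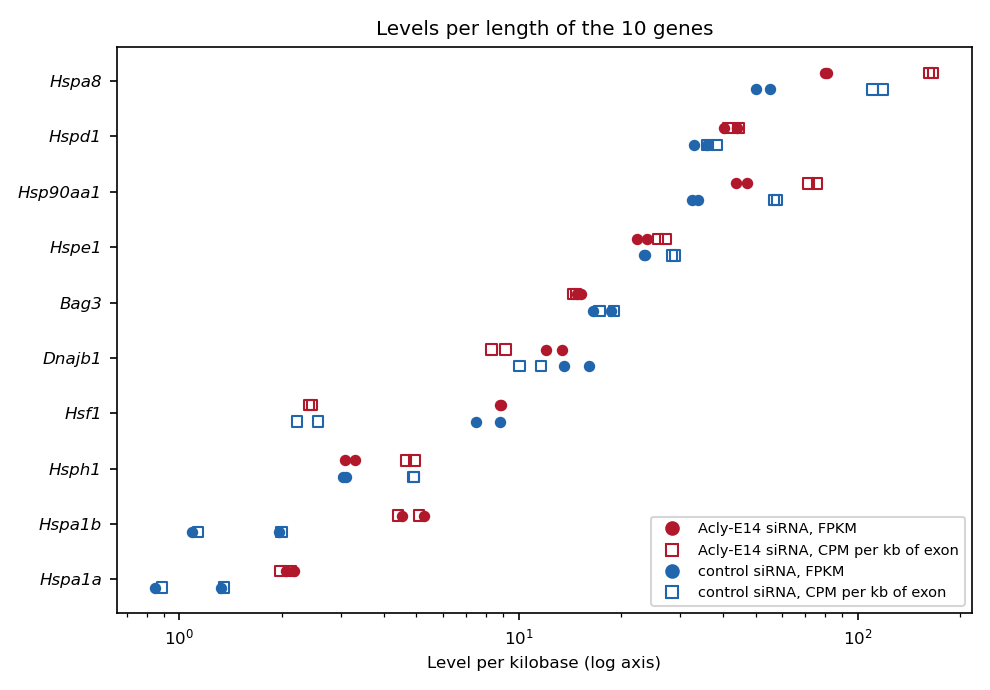
Level per kilobase of the 10 genes on a log axis, as FPKM (filled circles) and as CPM per kilobase of GENCODE M21 merged exon (open squares), for Acly-E14 siRNA (red, upper of each pair) and control siRNA (blue, lower); each mark is 1 library. Hspa8 is highest on both scales and Hspa1a lowest, and Hsf1 and Hsph1 change places with the length used.

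The rest of the chaperone network was read from 6 lists of 99 further genes, 98 with a row and 92 tested. Of these, 14 rose, 15 fell and 63 did not pass the test, 31.5% called beside 33.2% of all genes, and the median log2 change was 0.0055. With library totals alone 19 were higher and 11 lower. Without Acly-E14 siRNA library 2 the count called was 14, without control library 1 it was 17, and without control library 2 it was 15. The share called was 12.5% to 58.3% over the 6 lists, and differences between the lists were not tested.

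In the list of other HSP70, HSP110 and small heat shock proteins, 6 of 12 tested genes rose and 1 fell (58.3% called), with a median log2 change of 1.23. The summed level of the list moved much less, at 419 and 432 CPM after Acly-E14 siRNA against 386 and 386 CPM after control siRNA. Its most abundant gene, Hspa4, had 163 and 160 CPM against 179 and 175 CPM and was not called (log2 -0.13, edgeR adjusted p = 0.0996). Hspb1, which encodes HSP25, an ATP-independent holdase, had 23.8 and 26.8 CPM after Acly-E14 siRNA, against 5.12 and 7.16 CPM after control siRNA (4.12-fold, log2 2.04, SE 0.17, edgeR adjusted p = 0.0014). Cryab, which encodes alpha-B-crystallin, had 109 and 131 CPM after Acly-E14 siRNA, against 31.9 and 44.9 CPM after control siRNA (3.12-fold, edgeR adjusted p = 0.0023). Neither group overlapped the other for these genes.

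The other 4 that rose, named after their values were seen, were Hspb8 (1.85-fold), Hspb2 (2.72-fold), Hspa12a (4.26-fold) and Hspa1l (2.44-fold), all at levels under 8 CPM. Hspa1l shares sequence with Hspa1a and Hspa1b. Hspa4l, an HSP110 family gene, went the other way, at 96.0 and 83.6 CPM after Acly-E14 siRNA and 155 and 141 CPM after control siRNA (0.607-fold, edgeR adjusted p = 0.0033). Hsp25-ps1, a pseudogene row with 86% of its 75-base stretches in Hspb1, had 137 and 155 counts after Acly-E14 siRNA, against 16 and 43 counts after control siRNA. Fibroblast and stroma markers rose by a similar median, 1.47, in the same libraries. Col1a1 had 834 and 1074 CPM after Acly-E14 siRNA, against 184 and 295 CPM after control siRNA. Their part in the rises of Hspb1, Cryab and the Hspa1 pair was not tested.

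Among other J-domain proteins 0 of 14 rose and 4 fell, 28.6% called, beside 33.2% of all genes. Dnaja2, a general HSP70 partner, had 285 and 282 CPM after Acly-E14 siRNA, against 369 and 363 CPM after control siRNA (0.775-fold, edgeR adjusted p = 0.0043). Dnajc13 had 248 and 231 CPM, against 345 and 321 CPM (0.719-fold, edgeR adjusted p = 0.0046), and Dnajb6 fell to 0.805-fold of control (edgeR adjusted p = 0.013). The Dnajb6 call was lost without Acly-E14 siRNA library 2 (0.074) or control library 2 (0.066).

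Of 22 genes in a joint list of the HSP90 machine and nucleotide exchange co-chaperones, 3 rose and 3 fell (27.3% called). St13, which encodes the HSP70-interacting protein HIP, had 128 and 126 CPM after Acly-E14 siRNA, against 104 and 94.2 CPM after control siRNA (1.28-fold, edgeR adjusted p = 0.011). Bag1, an exchange factor like Bag3, had 93.1 and 101 CPM, against 120 and 127 CPM (0.786-fold, edgeR adjusted p = 0.013), and Stub1, the gene of the chaperone-linked ubiquitin ligase CHIP, rose 1.22-fold (edgeR adjusted p = 0.024). Bag2, named after its values were seen, rose 1.91-fold (edgeR adjusted p = 0.033), at 2.75 and 2.60 CPM against 1.49 and 1.31 CPM. Bag4, Bag5 and Bag6 were not called. St13 lost its call without Acly-E14 siRNA library 2 (0.051) or control library 2 (0.053), Bag1 without Acly-E14 siRNA library 1 (0.060) or control library 2 (0.063), and Stub1 without any 1 of the 4 libraries (0.064 to 0.117). Hsp90ab1, the constitutive HSP90-beta gene, had 878 and 906 CPM, against 811 and 825 CPM, and was not called (log2 0.13, edgeR adjusted p = 0.117). It was called under library totals (0.022) and under limma on log2(FPKM + 1) (0.025). Counts of Hsp90aa1 per count of Hsp90ab1 were 0.320 and 0.329 after Acly-E14 siRNA and 0.274 and 0.276 after control siRNA.

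Inside mitochondria, 2 of 18 chaperone and protease genes rose and 4 fell, a called share of 33.3%, near that of all genes. Hspa9, which encodes mortalin, the HSP70 of the matrix, had 452 and 425 CPM after Acly-E14 siRNA, against 553 and 508 CPM after control siRNA (0.826-fold, edgeR adjusted p = 0.025). Its call was lost without Acly-E14 siRNA library 2 (0.118) or control library 1 (0.130) and with library totals alone (0.0503). The inner membrane protease genes Yme1l1 (0.775-fold, edgeR adjusted p = 0.0048) and Afg3l2 (0.783-fold, 0.012) and the exchange factor gene Grpel2 (0.727-fold, 0.015) fell too. The Afg3l2 call was lost without Acly-E14 siRNA library 2 (0.079) or control library 2 (0.058), and the Grpel2 call without Acly-E14 siRNA library 1 (0.074) or either control library (0.053 and 0.066).

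In the list of the TRiC chaperonin, which folds actin and tubulin, and prefoldin, 2 of 16 rose and 0 fell (12.5% called). Cct2 had 174 and 179 CPM after Acly-E14 siRNA, against 108 and 114 CPM after control siRNA (1.59-fold, edgeR adjusted p = 0.0016), and Cct3 rose 1.3-fold (edgeR adjusted p = 0.0077, lost without control library 1 at 0.055). Tcp1, which encodes another subunit of the same ring, stood at a log2 change of 0.0043 (edgeR adjusted p = 0.96).

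Of 10 tested heat shock factors and regulators of HSF1, 1 rose and 3 fell (40.0% called). Hsf2, whose protein can form mixed trimers with HSF1, had 7.55 and 8.95 CPM after Acly-E14 siRNA, against 14.7 and 13.7 CPM after control siRNA (0.582-fold, edgeR adjusted p = 0.0088). Sirt1, which encodes a deacetylase that prolongs HSF1 binding to DNA, had 23.0 and 23.2 CPM, against 40.3 and 39.6 CPM (0.579-fold, edgeR adjusted p = 0.0019). Vcp, which encodes the segregase p97, fell to 0.844-fold of control (edgeR adjusted p = 0.016), a call lost without any 1 of the 4 libraries (0.065 to 0.089). Plk1, a mitotic kinase that also acts on HSF1, rose 3.09-fold (edgeR adjusted p = 0.0037), at 11.8 and 14.4 CPM against 3.48 and 4.96 CPM.

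**Figure D5:**
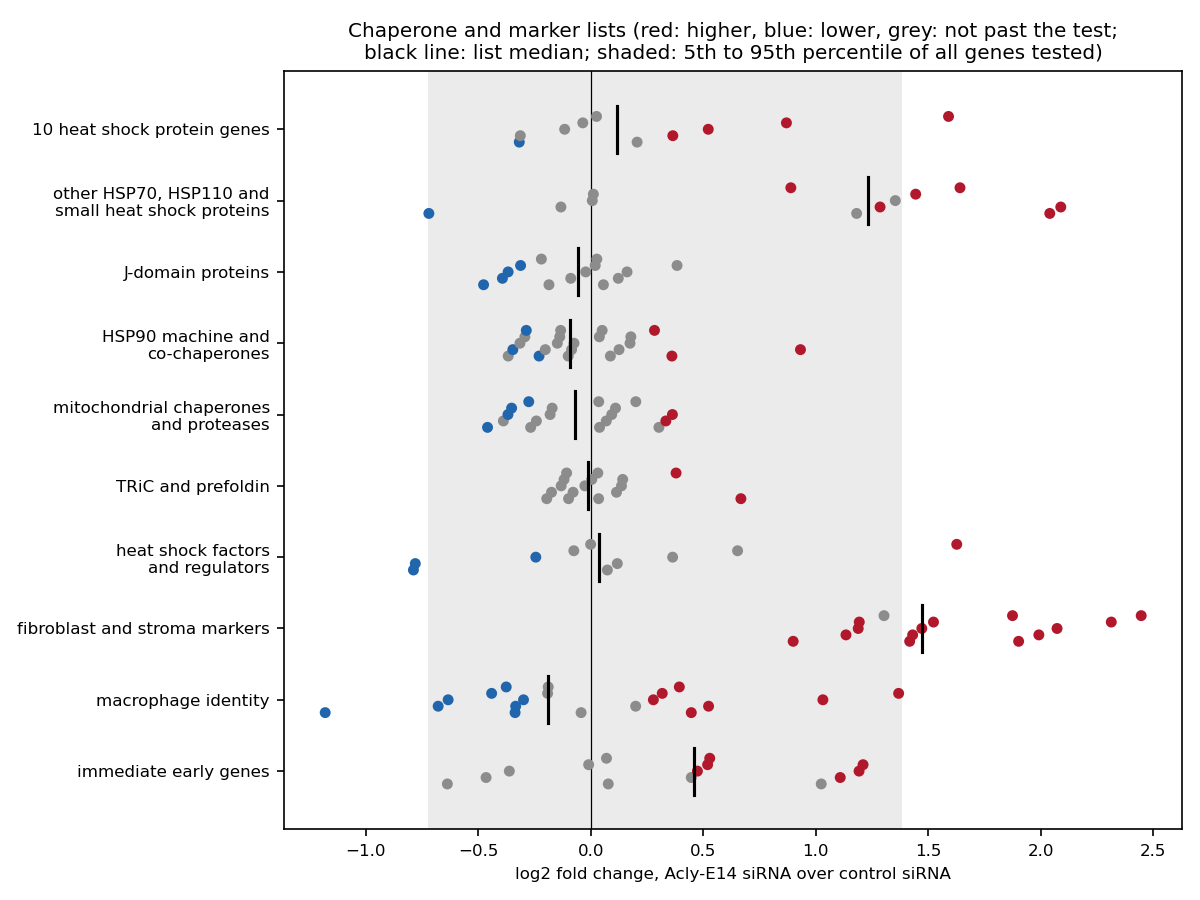
Log2 fold change of each tested gene (x axis), Acly-E14 siRNA over control siRNA, in the 10 heat shock protein genes, 6 chaperone lists and 3 marker lists; points are genes (red higher, blue lower, grey not called), black lines list medians, and the shaded band spans the 5th to 95th percentile of all genes tested. Other HSP70 and small heat shock proteins have a median of 1.23, near that of the fibroblast and stroma markers at 1.47, and the other 5 chaperone lists have medians within 0.1 of 0.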

How the data were processed

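The authors deposited raw counts per gene and library and FPKM values (counts per kilobase, scaled to library size), per the file headers. HISAT2, StringTie 1.3.0, edgeR and mm10 are named in the submitters' processing notes; neither their roles nor the counting program, its strand setting or its annotation is stated, and of the kits named (stranded total RNA, mRNA capture) it is unclear which enriched the RNA. Of the value columns, 1 (an FPKM column whose name lacks a replicate number) was not used. FPKM were therefore recomputed from counts and the length implied by the other FPKM columns. The recomputed FPKM matched 49103 of 49103 deposited values within a relative tolerance of 0.001. As the lengths came from these same values, the match shows only that each implied length was alike between libraries. Symbols were matched for 34267 of 34745 Ensembl identifiers. Gene coordinates come from GENCODE M21 (mm10).

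The test on the counts was that of edgeR 4.0.16, run in R 4.3.3 (filterByExpr with a minimum count of 10, TMM factors, quasi-likelihood F test, no covariate, Benjamini-Hochberg adjustment over 13108 genes). CPM values are TMM-scaled counts. Standard errors are those implied by F. Alternatives were each library left out, DESeq2 1.42.0, RLE factors, library totals, no filter, limma 3.58.1 on log2(FPKM + 1), a replicate block and 2 other thresholds; adding pseudogene counts was chosen after seeing the data. The members and lists were chosen with earlier results of these data known. In each list, the 3 genes of smallest p and the gene of highest mean CPM could be named, beside all members, Acly, Col1a1 and Cd68. The labels do not say whether libraries of 1 group are separate cultures or animals, so the p-values may reflect technical spread alone. Replicates differed by more than sampling noise (chi-square per degree of freedom 11.7 and 10.1). Shared sequence was counted as identical 75-base stretches of GENCODE M21 transcripts. The result of 1 further marker list is not reported here.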

Additional observations from a re-analysis of the deposited data

How the results depend on the processing

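Of 122 values of the 10 members under alternatives, none changed from a call in one direction to the other, and 98 stayed on the same side of the threshold, 17 lost a call and 7 gained one. The 2 other thresholds among these alternatives reused the main fit. The looser one (adjusted p under 0.1) could take no call away, and the stricter one (a log2 change beyond 1) could add none. Hspa1b kept its call under every alternative tried, and Hspa8 under every one except a log2 change beyond 1. Hsph1 and Hsf1, which were not called, changed sign between settings. The members called numbered 3 to 4 with a library left out, 3 without a filter on low counts, 3 with DESeq2 and 1 at a log2 change beyond 1. The genes called in all numbered 2088 to 3215 with a library left out (main count 4354) and 1201 at a log2 change beyond 1, and the further chaperone genes 14 to 21 and 6. Of all calls, 2776 were higher and 1446 lower with library totals, and 2669 and 1389 with limma, against 2264 and 2090 in the main test. Neither library totals nor the FPKM carry the TMM factors. Those were 1.026 and 1.039 for Acly-E14 siRNA libraries, and 0.958 and 0.980 for control libraries. The median log2 change of all genes was 0.0938 with library totals, 0.0506 with limma and 0.00268 in the main test. With the replicate number as a replicate block, 7 members were called (5 higher, 2 lower), with Dnajb1 (adjusted p = 0.027) and Hspd1 (0.027) gained, 32 further chaperone genes (Hsp90ab1 gained at 0.0398) and 4896 genes in all; the summed Hspa1 pair had a log2 change of 1.35. The labels tie the numbers to nothing shared, so the numbers were not taken as pairs. The differences between libraries 1 and 2 of each group had a correlation of 0.144 across genes, which cannot decide whether they are pairs. Hspa1b, Hspb1, Cryab and the summed fibroblast and stroma markers were higher in library 2 of both groups. Hspa1a and Hspa8 were so only among the controls. The cause of the shifts between settings was not tested. Hspa1a and Hspa1b had the fewest counts of the members, 53 to 312 per gene and library, so counting error is relatively largest for them.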
